A study of Mus musculus with 4 samples.

Results

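The genes described here are 8 mouse major histocompatibility complex (MHC) class I heavy chains, H2-K1, H2-D1, H2-Q4, H2-Q6, H2-Q7, H2-T22, H2-T23 and H2-M3, with their shared light chain B2m. They were chosen by symbol and are 9 of the 34097 genes in the count tables. The libraries are single-cell RNA sequencing of transplanted mouse hearts taken on day 5. The allogeneic group (allografts, from a donor genetically different from the recipient) has 3 libraries, replicates 1, 2 and 3, and the isogeneic group (isograft, donor and recipient genetically alike) has 1, replicate 2. The labels name no strain, age, genotype, drug or cell sort for either group. Nor do they say if each replicate came from its own animal. A p-value therefore reflects sample-to-sample spread alone, and that spread may be technical.

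Class I molecules carry peptides from inside the cell to its surface, where CD8 T cells and natural killer (NK) cells read them. Each consists of a heavy chain, which holds the peptide, and beta-2 microglobulin, the product of B2m, without which most heavy chains do not reach the surface. The classical heavy chains H2-K1 and H2-D1 differ widely between strains and are main targets of graft rejection. The non-classical ones have narrower roles. H2-T23 encodes Qa-1, the ligand of the CD94/NKG2A receptor, and H2-Q6 and H2-Q7 encode Qa-2. H2-T22 binds a subset of gamma-delta T cells, and H2-M3 presents N-formylated peptides. Interferons raise the transcription of class I genes in many cell types, through regulators that include NLRC5 and IRF1.

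In the mm10 annotation the 8 heavy chain genes lie on chromosome 17 and B2m lies on chromosome 2. Promoters were read because most members moved together between graft types: 250 bases before to 50 bases after each gene start, from RefSeq (GRCm38.p6), found for all 9 members. They are shown for a classical gene, for the H2-Q6 and H2-Q7 pair with the widest differences between cell classes, for H2-T23 and for the light chain. Capitals mark matches, on either strand, to the motifs AAGTGAAA (an interferon response sequence of class I promoters), GAAA followed by any 2 bases and GAAA again (ISRE, the core of an interferon-stimulated response element), TTCNNNGAA (a gamma-activated site), GGGGATTCC (an NF-kB site), TGACGC (part of an X2 box) and CCAAT (a Y box).
H2-K1, chr17:34000298-34000597, minus strand: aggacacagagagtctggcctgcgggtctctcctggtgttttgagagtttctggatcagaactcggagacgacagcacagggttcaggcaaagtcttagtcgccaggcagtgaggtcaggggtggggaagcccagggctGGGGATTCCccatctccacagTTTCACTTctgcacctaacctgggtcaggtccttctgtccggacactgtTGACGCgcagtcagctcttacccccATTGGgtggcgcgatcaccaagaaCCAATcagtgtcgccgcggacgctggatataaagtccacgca
H2-Q6, chr17:35424600-35424899, plus strand: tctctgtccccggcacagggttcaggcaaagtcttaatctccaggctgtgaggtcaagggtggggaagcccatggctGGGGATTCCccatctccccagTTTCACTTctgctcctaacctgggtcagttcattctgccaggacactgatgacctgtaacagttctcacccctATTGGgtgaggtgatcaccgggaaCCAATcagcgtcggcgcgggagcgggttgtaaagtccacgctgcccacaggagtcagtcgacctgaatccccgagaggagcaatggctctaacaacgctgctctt
H2-Q7, chr17:35438905-35439204, plus strand: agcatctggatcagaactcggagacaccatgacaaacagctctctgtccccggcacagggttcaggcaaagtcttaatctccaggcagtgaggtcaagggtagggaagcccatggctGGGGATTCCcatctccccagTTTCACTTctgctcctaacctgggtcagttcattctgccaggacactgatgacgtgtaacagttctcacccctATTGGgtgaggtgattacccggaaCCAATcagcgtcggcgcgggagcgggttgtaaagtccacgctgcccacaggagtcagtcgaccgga
H2-T23, chr17:36032652-36032951, minus strand: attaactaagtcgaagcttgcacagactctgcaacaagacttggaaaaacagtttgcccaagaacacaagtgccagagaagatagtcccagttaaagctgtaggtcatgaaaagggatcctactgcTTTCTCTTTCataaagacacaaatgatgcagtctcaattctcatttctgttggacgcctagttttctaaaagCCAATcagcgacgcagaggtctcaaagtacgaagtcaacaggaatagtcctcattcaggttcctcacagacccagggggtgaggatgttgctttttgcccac
B2m, chr2:122147437-122147736, plus strand: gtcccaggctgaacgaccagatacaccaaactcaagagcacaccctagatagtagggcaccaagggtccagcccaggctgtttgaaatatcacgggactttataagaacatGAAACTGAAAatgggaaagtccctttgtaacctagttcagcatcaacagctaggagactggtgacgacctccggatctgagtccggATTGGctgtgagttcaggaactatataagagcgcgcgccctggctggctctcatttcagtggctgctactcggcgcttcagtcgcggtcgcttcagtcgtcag
Among all 32851 RefSeq promoters of this length, AAGTGAAA occurred in 1.6% and GGGGATTCC in 0.25%. The first was found in 7 of the members (not in H2-T23 or B2m), and the second in 4 (H2-K1, H2-D1, H2-Q6 and H2-Q7). The ISRE core, in 3.44% of all promoters, matched H2-T22, H2-T23 and B2m, and in H2-T22 it overlapped the AAGTGAAA match. TTCNNNGAA (8.3% of promoters) matched H2-M3, and CCAAT (37.41%) matched all 9. TGACGC (7.4%) matched H2-K1, H2-D1 and H2-M3 before the gene start and H2-Q4 after it. AAGTGAAA was added to the search after the promoters had been read. A match describes the letters of the reference and does not show binding.

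The deposited values are counts of unique molecular identifiers (UMIs, 1 per captured RNA molecule). The allografts totalled 51054446, 63434265 and 51463909 UMIs, against 100038951 for the isograft. After filtering, 4778, 7663 and 5985 allograft cells and 10341 isograft cells remained. Cells were put into classes by marker genes: at least 3 of a class's 8 markers had to be on. At exactly 3 stood 27, 77 and 117 endothelial cells of the allografts and 65 of the isograft, while 14, 55 and 86 in the allografts against 43 in the isograft had 2 and were left out. For each class, UMIs were summed per library and given per 1000000 UMIs of that sum (CPM). Because the assay reads the end of each transcript, CPM here were not divided by gene length. Replicate 3 stood apart from the other allografts: the chi-square per gene was 17.8 between replicates 1 and 2, but 365 and 384 between replicate 3 and those 2 libraries. Against the isograft it was 965, 1041 and 457 for replicates 1, 2 and 3. These values come from sums over all kept cells, so they also reflect the mix of cells. Gated fibroblasts numbered 52, 102 and 1884 in replicates 1, 2 and 3. Any pair of libraries shared at most 27 cell barcodes. Classes were small in places, with 35 T cells, 4 NK cells and 24 dendritic cells in the isograft, and 11 to 25 mural cells (pericytes and smooth muscle) in each allograft, so NK, dendritic and mural cells were not tested by graft type.

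Strain bears on every value below. The reference genome is that of C57BL/6J mice, which carry the b haplotype of the MHC, and molecules from another haplotype may align less well or to a neighbouring class I gene. In the b haplotype the promoter of the class II gene H2-Ea is deleted. H2-Ea UMIs were present in both groups, at 1015, 786 and 1064.5 CPM in dendritic cells of allogeneic replicates 1, 2 and 3 and 1526 CPM in those of the isograft. In macrophages they were at 817, 707 and 553 CPM in the allografts and 47.9 CPM in the isograft. Xist was at most 0.928 CPM in any class and library, and the Y-linked Ddx3y was found at 29.0 to 159 CPM in every allograft class. A difference in level and a difference in allele between the graft types, or between cells of donor and recipient within an allograft, cannot be told apart here.

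The members also share sequence. In the last 400 bases of their annotated transcripts, 32.15% of the 90-base words of H2-Q6 occurred in another gene, most of them in H2-Q7 (28.3%). For H2-T22 the share was 16.83%, all of it with H2-T10, and it was 10.8% for H2-D1, 9.65% for H2-Q4, 4.95% for H2-T23 and 2.69% for H2-K1. None of the 90-base words of H2-Q7, H2-M3 or B2m occurred elsewhere. Words from these last 400 bases were looked up in whole transcripts of other genes, so shares need not match in both directions. With 50-base words the shares were 51.99% for H2-Q6, 34.38% for H2-T22, 27.92% for H2-Q4 and 22.54% for H2-D1. They were 14.86% for H2-T23, 13.28% for H2-K1 and 0.51% for H2-Q7. The split between H2-Q6 and H2-Q7 is therefore uncertain, and their sum is given beside them. H2-T22 and H2-T23 overlap the antisense gene A930015D03Rik, H2-Q4 overlaps Gm11131, and B2m overlaps Patl2 on the opposite strand, and strand use in counting is not stated in the labels.

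The first comparison asked how the classical heavy chains differed between allografts and the isograft within each cell class. H2-K1 rose in allograft endothelial cells, fibroblasts, macrophages and neutrophils, and H2-D1 rose in fibroblasts. In endothelial cells, which line the vessels of the graft, H2-K1 stood at 3560.4, 3539.9 and 3642.5 CPM in allogeneic replicates 1, 2 and 3 and 1305 CPM in the isograft. H2-D1 stood at 4035, 3490.3 and 4251 CPM in the allografts and 2062 CPM in the isograft. All 3 allografts lay above the isograft for both genes, and the allografts hardly differed among themselves in H2-K1. The log2 change of H2-K1 was 1.501 (SE 0.19, edgeR adjusted p = 0.0164) and that of H2-D1 was 0.97 (SE 0.20), which did not pass (edgeR adjusted p = 0.0579).

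Fibroblasts, which lay down the matrix of the heart, had the largest log2 changes of both classical genes among the 6 classes tested. H2-K1 had 3539, 3504 and 2692.5 CPM in allograft fibroblasts and 300.1 CPM in isograft fibroblasts. H2-D1 had 3816, 3955 and 2774 CPM in the allografts and 837 CPM in the isograft. Replicate 3 was the lowest allograft for both genes, and the groups did not overlap. With edgeR, H2-K1 rose by 3.36 on the log2 scale (SE 0.37, adjusted p = 0.00327) and H2-D1 by 2.00 (SE 0.35, adjusted p = 0.027).

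Macrophages had 4131, 4007 and 3536 CPM of H2-K1 in the allografts and 1108 CPM in the isograft, a log2 change of 1.84 (SE 0.23, edgeR adjusted p = 0.0228). Their H2-D1 was 5227, 5443.5 and 4537 CPM in the allografts and 2567 CPM in the isograft, a log2 change of 1.01 (SE 0.23) that did not pass (edgeR adjusted p = 0.071). Both genes were higher in every allograft than in the isograft, and replicate 3 was again the lowest allograft. Monocytes, with 3335.5, 3359 and 2379 CPM of H2-K1 in the allografts and 694 CPM in the isograft, had a log2 change of 2.05 (SE 0.33) that missed the threshold (edgeR adjusted p = 0.0591). In neutrophils the H2-K1 log2 change was 3.07 (SE 0.57, edgeR adjusted p = 0.00624) and the H2-D1 log2 change was 1.80 (SE 0.53, edgeR adjusted p = 0.0777). Neutrophils also held the highest H2-D1 level of any allograft class, at 7122, 7656 and 5719 CPM in the allografts against 2276 CPM in the isograft. Markers of other classes differed between the neutrophil libraries too. The 8 monocyte markers summed to 1662, 1891 and 2289 CPM in allograft neutrophils and 397 CPM in isograft ones. The 8 macrophage markers summed to 1336, 991 and 159 CPM in allograft neutrophils, against 155 CPM in isograft ones. The 8 fibroblast markers summed to 38.8, 45.997 and 402 CPM in allograft neutrophils and 1026 CPM in isograft ones, beside 78341 to 112610 CPM of the neutrophils' own markers in the allografts and 113500 CPM in the isograft. Their part in the neutrophil values was not tested.

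T cells went the other way in level but passed no test. H2-K1 had 1501, 1616 and 1656 CPM in allograft T cells and 2386 CPM in isograft T cells, whose 151 UMIs give an exact Poisson 95% interval of 2021 to 2799 CPM. All 3 allografts lay below that interval, which covers counting error only and not the spread between cells or libraries. H2-D1 had 2213, 2399 and 1743 CPM in the allografts and 2655 CPM in the isograft. After library scaling the edgeR log2 changes were -0.21 (SE 0.19, adjusted p = 0.727) and 0.05 (SE 0.23, adjusted p = 0.908). The isograft T cells were 35 cells with a median of 1647 UMIs, against medians of 10651.5, 7018 and 5061 UMIs in the allografts, and their summed fibroblast markers (8 genes) were at 1027 CPM, against 45.5, 72.4 and 583 CPM in the allografts. The part of depth and of these markers in the result was not tested.

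The order of the allograft classes differed between the classical genes. By allograft mean, H2-K1 was highest in macrophages (3891 ± 314 CPM, SD, n = 3) and endothelial cells (3581 ± 54.3 CPM), whose ranges over libraries overlapped, and lowest in T cells (1591 ± 80.6 CPM), whose range overlapped no other class. H2-D1 was highest in neutrophils (6832 ± 1000.3 CPM), with no overlap with macrophages (5069 ± 474 CPM), the next class. It was again lowest in T cells (2118 ± 338 CPM). H2-K1 as a share of H2-K1 plus H2-D1 UMIs was 46.9%, 50.4% and 46.1% in allograft endothelial cells and 38.8% in isograft ones. In fibroblasts the share was 48.1%, 47.0% and 49.3% in the allografts and 26.4% in the isograft. Macrophages (44.1%, 42.4% and 43.8% against 30.2%), monocytes and neutrophils had the same order, with every allograft above the isograft. An exact two-sided permutation test over libraries gave p = 0.25 in each of these 5 classes, the smallest that 3 against 1 allows.

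**Figure D1:**
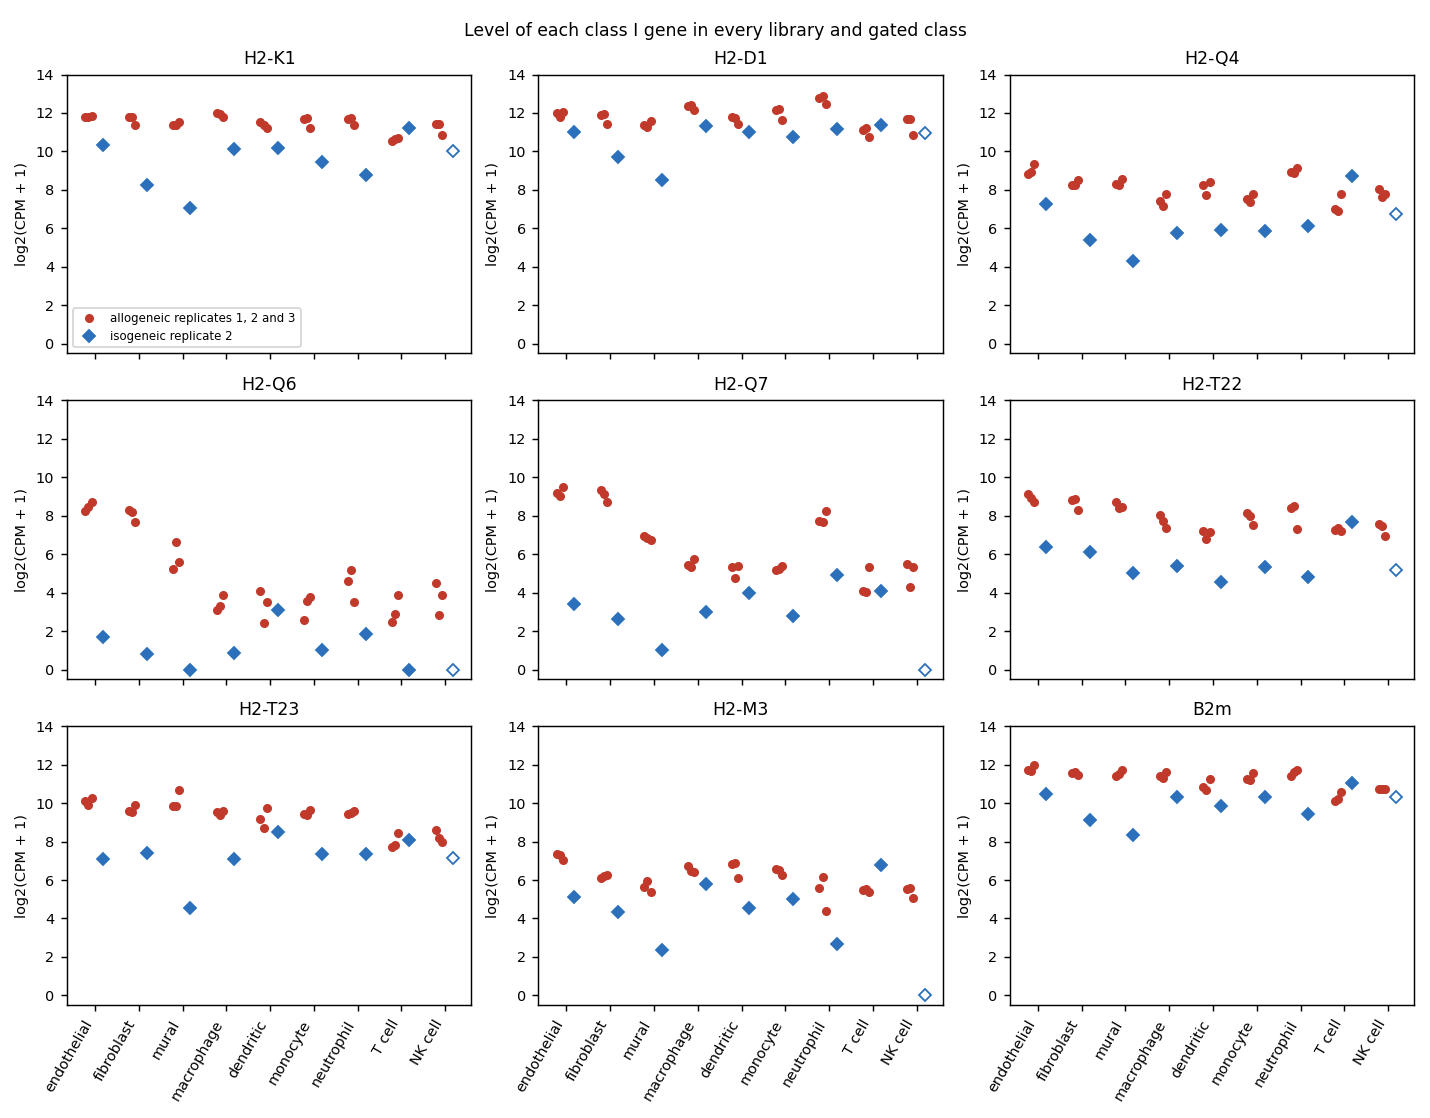
Level of each member as log2(CPM + 1), with 1 point per library: circles are allogeneic replicates 1, 2 and 3 and the diamond is the isogeneic library, open where it holds under 20 cells. H2-K1, H2-D1 and B2m stay within a narrower band over allograft classes than H2-Q6, whose allograft means run from 8.18 CPM in T cells to 354 CPM in endothelial cells.

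H2-Q6 and H2-Q7, the genes of Qa-2, had the largest log2 differences of the members by graft type in endothelial cells and fibroblasts. Both were called higher in allograft endothelial cells, fibroblasts and macrophages. In endothelial cells H2-Q6 had 304, 345 and 413 CPM in the allografts and 2.29 CPM in the isograft (12 UMIs, exact Poisson 95% interval 1.18 to 4.0 CPM). H2-Q7 had 577, 515 and 711 CPM in the allografts and 9.55 CPM in the isograft (50 UMIs). Every allograft lay far above the isograft in both genes. With edgeR, H2-Q6 rose by 7.29 (SE 0.41, adjusted p = 0.00246) and H2-Q7 by 6.01 (SE 0.37, adjusted p = 0.0025) on the log2 scale, and as 1 summed feature they rose by 6.37 (SE 0.35, adjusted p = 0.00246).

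Fibroblasts gave the same picture at similar levels. H2-Q6 had 309, 292 and 201 CPM in allograft fibroblasts and 0.740 CPM in isograft fibroblasts (42 UMIs among 56774114). H2-Q7 had 647, 555 and 425 CPM in the allografts and 5.27 CPM in the isograft. Replicate 3 was the lowest allograft, and no library of 1 group came near the other. The edgeR log2 changes were 8.41 for H2-Q6 (SE 0.51, adjusted p = 0.000599) and 6.61 for H2-Q7 (SE 0.46, adjusted p = 0.00066).

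In macrophages, monocytes and T cells of the same allografts both genes were low. H2-Q6 plus H2-Q7 had 50.3, 48.7 and 65.8 CPM in allograft macrophages and 7.83 CPM in isograft macrophages. The sum was 40.8, 47.6 and 53.4 CPM in allograft monocytes and 6.94 CPM in isograft monocytes, and 20.9, 21.6 and 52.9 CPM in allograft T cells and 15.8 CPM in isograft T cells, the last from 1 UMI. Neutrophils stood above these classes, with 233, 240.2 and 309 CPM in the allografts and 32.0 CPM in the isograft, most of it H2-Q7. By allograft mean the sum ranked endothelial cells (955 ± 147 CPM) and fibroblasts (809 ± 168 CPM) first, with overlapping ranges. Neutrophils (261 ± 41.9 CPM) and mural cells (174 ± 33.4 CPM) came next, each apart from its neighbours, and macrophages, NK cells, monocytes, dendritic cells and T cells followed at 31.8 to 54.9 CPM with ranges that overlapped.

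For single cells, each cell was thinned to 2000 UMIs and cells below that depth were left out. A UMI of H2-Q6 or H2-Q7 was then found in 82.2%, 79.7% and 80.6% of allograft endothelial cells (241, 556 and 320 cells, with 22, 89 and 244 too shallow) and 2.55% of isograft ones (744 cells, 268 too shallow). Without thinning the shares were 98.5%, 91.8% and 81.2% in the allografts and 5.83% in the isograft. In fibroblasts the thinned shares were 83.7%, 75.3% and 54.1% in the allografts and 1.27% in the isograft (exact binomial 95% interval 0.970 to 1.64). In macrophages they were 9.07%, 6.995% and 11.7% in the allografts against 1.73% in the isograft, and in allograft T cells 5.15%, 3.98% and 8.04%. Intervals throughout cover counting error only. Free RNA can give UMIs to cells that do not express a gene, and its level was not measured. In replicate 1, 1057 barcodes with under 500 UMIs together had 20.6 CPM of H2-Q6 and 101 CPM of H2-Q7. That was above the 7.47 and 42.8 CPM of that library's macrophages. The levels of this pair in macrophages, monocytes and T cells of replicate 1 were thus below those of these barcodes, while the neutrophil level was above them. Whether these barcodes held free RNA or cells of low quality was not tested. The other libraries held no such barcodes.

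**Figure D2:**
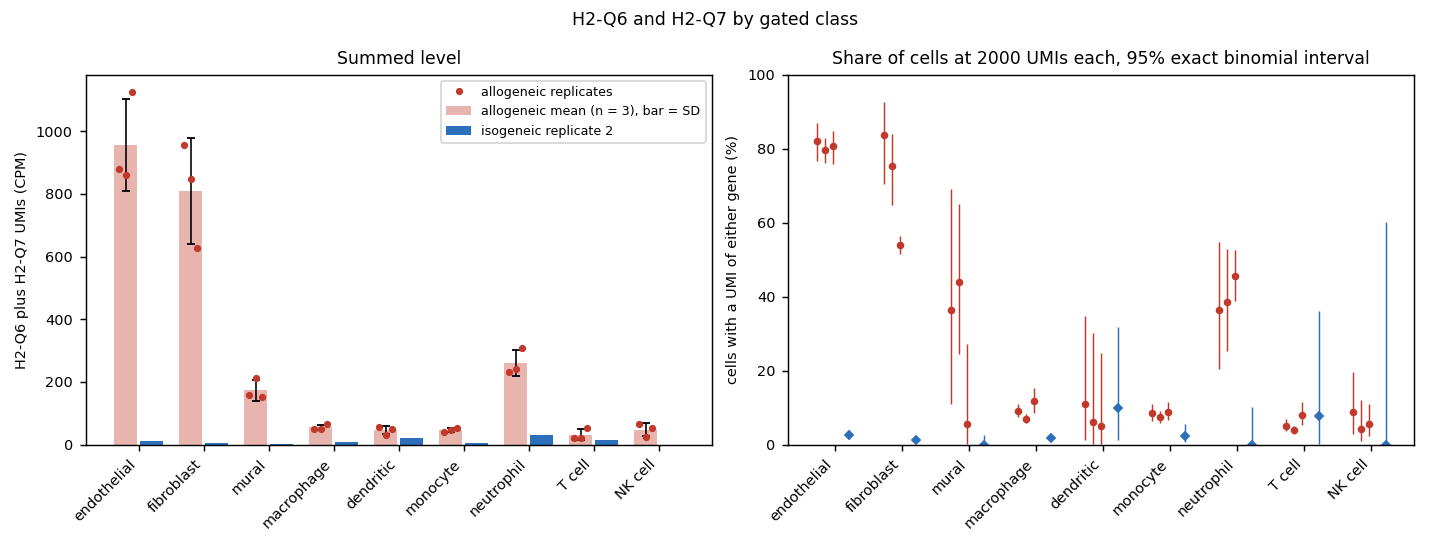
Left, H2-Q6 plus H2-Q7 in CPM by cell class, as allograft mean with SD over 3 libraries, points for each allograft, and a bar for the isograft. Right, the percentage of cells with a UMI of either gene at 2000 UMIs per cell, with exact binomial 95% intervals; allograft endothelial cells sit at 79.7% to 82.2%, while allograft macrophages sit at 6.995% to 11.7%.

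With edgeR the macrophage log2 changes were 3.59 for H2-Q6 (SE 0.56, adjusted p = 0.0332) and 2.70 for H2-Q7 (SE 0.26, adjusted p = 0.0129). The H2-Q6 call ended under a stricter cell gate (3.17, edgeR adjusted p = 0.0614) and without replicate 1 (3.78, edgeR adjusted p = 0.0627). In monocytes H2-Q7 passed (log2 change 2.58, SE 0.31, edgeR adjusted p = 0.0295) and H2-Q6 did not (3.16, SE 1.20, edgeR adjusted p = 0.254). In neutrophils H2-Q7 rose by 3.29 (SE 0.69, edgeR adjusted p = 0.0133), while H2-Q6, with 3, 7 and 8 UMIs in the allografts and 1 UMI in the isograft, did not pass (edgeR adjusted p = 0.475). In T cells H2-Q6 had 58, 90 and 46 UMIs in the allografts and 0 UMIs in the isograft, which allows up to 58.3 CPM there, so no fold is given.

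H2-T23, the gene of Qa-1, rose in 5 of the 6 classes tested, all but T cells. In endothelial cells it had 1095, 941 and 1234 CPM in the allografts and 135 CPM in the isograft, a log2 change of 3.06 (SE 0.27, edgeR adjusted p = 0.00558). In macrophages it had 752, 676 and 774 CPM in the allografts and 136 CPM in the isograft, a log2 change of 2.46 (SE 0.23, edgeR adjusted p = 0.0123). The allografts lay close together in both classes and far above the isograft. The log2 changes were 2.22 in fibroblasts (SE 0.35, edgeR adjusted p = 0.0167), 2.08 in monocytes (SE 0.24, edgeR adjusted p = 0.0275) and 2.40 in neutrophils (SE 0.57, edgeR adjusted p = 0.0284). T cells had 208, 224 and 344 CPM in the allografts and 269 CPM in the isograft, which lay inside the allograft range.

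H2-T22 rose in endothelial cells, fibroblasts, macrophages and neutrophils. It had 561, 482 and 414 CPM in allograft endothelial cells and 82.9 CPM in isograft ones, a log2 change of 2.60 (SE 0.31, edgeR adjusted p = 0.014). Fibroblasts had 444, 465 and 319 CPM in the allografts and 68.8 CPM in the isograft, a log2 change of 2.50 (SE 0.35, edgeR adjusted p = 0.0105). The log2 changes in macrophages (2.37, SE 0.33, edgeR adjusted p = 0.027) and neutrophils (3.57, SE 0.71, edgeR adjusted p = 0.00938) also passed, and that in monocytes (2.52, SE 0.39) did not (edgeR adjusted p = 0.055). In these classes replicate 3 was the lowest allograft and still lay above the isograft.

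H2-Q4, another Q-region heavy chain, had 457, 478 and 661 CPM in allograft endothelial cells and 153 CPM in isograft ones, a log2 change of 1.84 (SE 0.30, edgeR adjusted p = 0.0327). Fibroblasts had 309, 299.9 and 363 CPM in the allografts and 40.4 CPM in the isograft, a log2 change of 2.94 (SE 0.35, edgeR adjusted p = 0.00514). Macrophages (1.79, SE 0.31, edgeR adjusted p = 0.0417) and neutrophils (3.13, SE 0.62, edgeR adjusted p = 0.00944) also passed. Unlike H2-T22, this gene was highest in replicate 3 among the allografts in all of these classes. H2-M3 had 160.2, 159 and 130.02 CPM in allograft endothelial cells and 34.2 CPM in isograft ones, a log2 change of 2.18 (SE 0.29, edgeR adjusted p = 0.0177). It also rose in fibroblasts (1.84, SE 0.31, edgeR adjusted p = 0.0194) but did not pass in macrophages (0.79, SE 0.20, edgeR adjusted p = 0.0876).

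The light chain B2m followed the heavy chains. It had 3403, 3229 and 4018 CPM in allograft endothelial cells and 1416.5 CPM in isograft ones, a log2 change of 1.37 (SE 0.21, edgeR adjusted p = 0.0279). In fibroblasts it had 3018, 3139 and 2871 CPM in the allografts and 554 CPM in the isograft, a log2 change of 2.37 (SE 0.33, edgeR adjusted p = 0.00973). B2m also rose in neutrophils (2.40, SE 0.57, edgeR adjusted p = 0.0285) and did not pass in macrophages (1.18, SE 0.25, edgeR adjusted p = 0.0603) or monocytes (0.94, SE 0.24, edgeR adjusted p = 0.141). The number of B2m UMIs per heavy chain UMI was 0.317, 0.325 and 0.351 in allograft endothelial cells and 0.374 in isograft ones, and 0.304, 0.318 and 0.368 in allograft fibroblasts and 0.384 in isograft ones. In monocytes it was 0.269, 0.254 and 0.435 in the allografts and 0.479 in the isograft. In mural cells it was 0.376, 0.416 and 0.398 for the allografts, against 0.566 for the isograft. The isograft lay above every allograft in these 4 classes, and inside the allograft range in macrophages and neutrophils. Replicate 3 had the highest ratio among the allografts in every class except mural cells.

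Counted over members, 8 of 9 rose in endothelial cells, where 2.42% of all genes tested were called higher and 1.35% lower, and 9 of 9 in fibroblasts, where 2.28% were called higher and 0.404% lower. In macrophages 6 rose (background 3.57% higher, 1.95% lower), in neutrophils 6 (4.17% higher, 0.377% lower) and in monocytes 2 (0.936% higher, 0.468% lower). In T cells none of the 9 was called with edgeR, which called 0.0% of all genes there. None had an unadjusted edgeR p below 0.05, against 1632 of all 13301 genes. DESeq2 called 0 members in T cells and 121 of the 13301 genes. The members' median log2 change was 2.18 in endothelial cells, 2.50 in fibroblasts, 1.84 in macrophages, 2.05 in monocytes, 3.07 in neutrophils and -0.05 in T cells. The median of all genes tested lay between -0.02 and 0.05 in the first 5 of these classes and at 1.07 in T cells. No member was called lower by edgeR in any class with all 3 allografts in the fit. DESeq2 called 9 of 9 higher in endothelial cells, fibroblasts and macrophages, 8 in monocytes and 7 in neutrophils, H2-D1 among them in each of these classes. Of all genes, DESeq2 called 542 of 12606 higher in endothelial cells, 656 of 15603 in fibroblasts and 1097 of 15319 in macrophages. It called 299 of 12822 higher in monocytes and 180 of 3977 in neutrophils.

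These calls depend on single libraries, since the isograft is 1 library and the fit has 2 residual degrees of freedom. Without replicate 2, 3 members were called in endothelial cells (H2-Q6, H2-Q7 and H2-T23), 3 in fibroblasts (H2-Q4, H2-Q6 and H2-Q7) and 3 in neutrophils (H2-Q4, H2-Q7 and H2-T22). Of all genes, 159 of 11944 were then called in endothelial cells, 177 of 16966 in fibroblasts and 185 of 4458 in neutrophils. With all libraries the calls were 475, 418 and 181. Without replicate 1, macrophages kept H2-Q7 and H2-T23 only, and monocytes had 0 member calls both without replicate 1 and without replicate 2. All-gene calls in macrophages without replicate 1 were 176 of 15006, against 846 with all libraries. In monocytes they were 95 of 12224 without replicate 1 and 23 of 12120 without replicate 2, against 180 with all libraries. Without replicate 3, the library that stood apart, all 9 members were called in endothelial cells, fibroblasts and macrophages, 8 in monocytes and 7 in neutrophils, every one of them higher. Calls over all genes rose too, to 4322 of 12849 in endothelial cells, 2622 of 10689 in fibroblasts and 7551 of 15009 in macrophages. They were 2360 of 12364 in monocytes and 471 of 3048 in neutrophils. In T cells 2 members were then called lower with edgeR, B2m by a log2 change of -0.61 (adjusted p = 0.0419) and H2-Q4 by -1.49 (adjusted p = 0.0106). Of all genes, 184 of 13524 were called lower there.

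**Figure D3:**
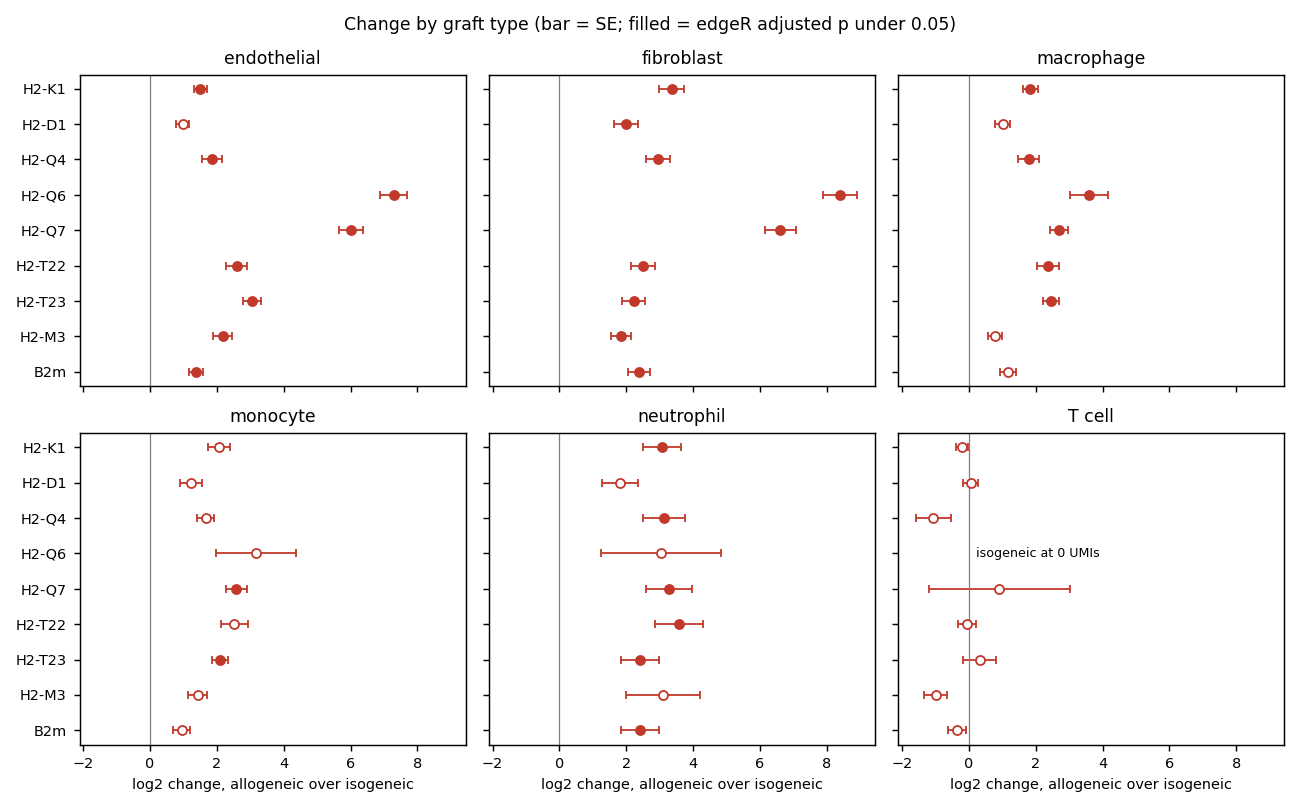
Log2 change of each member, allogeneic over isogeneic, in the 6 classes tested (edgeR; bars are SE, filled circles passed an adjusted p of 0.05). H2-Q6 and H2-Q7 stand out in endothelial cells and fibroblasts at 6.01 to 8.41, and the T cell values lie around 0; H2-Q6 is not drawn for T cells.

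Whether the non-classical members changed by more than the classical ones was tested by setting each member against H2-K1 plus H2-D1 UMIs of the same library and class. In endothelial cells 5 of the 6 non-classical members rose relative to the classical sum: H2-Q6 (6.1, SE 0.43), H2-Q7 (4.81, SE 0.36), H2-T23 (1.86, SE 0.27), H2-T22 (1.40, SE 0.31) and H2-M3 (0.98, SE 0.30), on the log2 scale. The H2-M3 call was lost with edgeR without replicate 1 (adjusted p = 0.0800) and without replicate 2 (adjusted p = 0.0791). On this scale 2.05% of all genes were called higher and 66.5% lower, because the classical genes themselves rose. In fibroblasts H2-Q6 (5.91, SE 0.49) and H2-Q7 (4.11, SE 0.47) rose by more than the classical genes (background 1.2% higher, 80.4% lower), and the other 4 members lay within 0.62 of them and were not called. Of those 4, 3 were called lower under another setting. Against H2-K1 alone, edgeR gave H2-M3 -1.49 (adjusted p = 0.00204), H2-T23 -1.11 (adjusted p = 0.0259) and H2-T22 -0.87 (adjusted p = 0.0247). Without replicate 3 it gave H2-M3 -0.86 (adjusted p = 0.00291) and H2-T23 -0.54 (adjusted p = 0.0196). A lower call is common on this scale. Against H2-K1 alone 13885 of 15603 fibroblast genes were called lower, with an all-gene median of -3.35. Without replicate 3 it was 9969 of 10689, with a median of -2.59. In macrophages H2-Q6, H2-Q7, H2-T23 and H2-T22 rose relative to the classical genes, by 2.31 (SE 0.63), 1.40 (SE 0.32), 1.15 (SE 0.26) and 1.05 (SE 0.26), and H2-M3 fell by 0.52 (SE 0.18), where 2.19% of all genes were called higher and 66.4% lower. With edgeR the H2-T23 and H2-T22 calls were lost against H2-K1 alone (adjusted p = 0.0603 and 0.0951) and without replicate 1 (adjusted p = 0.0643 and 0.0585), and the H2-Q6 call under the stricter gate (adjusted p = 0.0646). The H2-M3 call was lost under 4 other settings and without replicate 1 or replicate 2. In monocytes, neutrophils and T cells edgeR called 0 of 6, where 0.577%, 1.91% and 0.0% of all genes were called higher and 38.8%, 68.2% and 0.0% lower. At an unadjusted edgeR p under 0.05 it was 1 in monocytes (H2-T22), 1 in neutrophils (H2-T22) and 0 in T cells. Of all genes, 6917 of 12822 in monocytes, 2909 of 3977 in neutrophils and 1683 of 13301 in T cells had such an edgeR p. DESeq2 called 0 of 6 in each of these 3 classes, beside 4714, 2084 and 170 of all genes.

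As a share of all heavy chain UMIs, the 6 non-classical members made up 29.3%, 29.3% and 31.1% in allograft endothelial cells and 11.01% in isograft ones, an allograft mean of 29.9% ± 1.02 (SD, n = 3), 18.9 percentage points above the isograft. Leaving out H2-Q6 and H2-Q7 brought the difference to 12.4 points. In fibroblasts the share was 25.8%, 24.5% and 29.9% in the allografts against 21.1% in the isograft, and without H2-Q6 and H2-Q7 the difference of 5.64 points turned to -1.06. In macrophages it was 12.5%, 10.96% and 13.9% in the allografts and 7.37% in the isograft. T cells had 13.0%, 12.5% and 19.1% in the allografts and 16.9% in the isograft, which lay inside the allograft range. The exact two-sided permutation p was 0.25 in endothelial cells and macrophages, the smallest possible, 0.5 in fibroblasts and 1.0 in T cells.

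**Figure D4:**
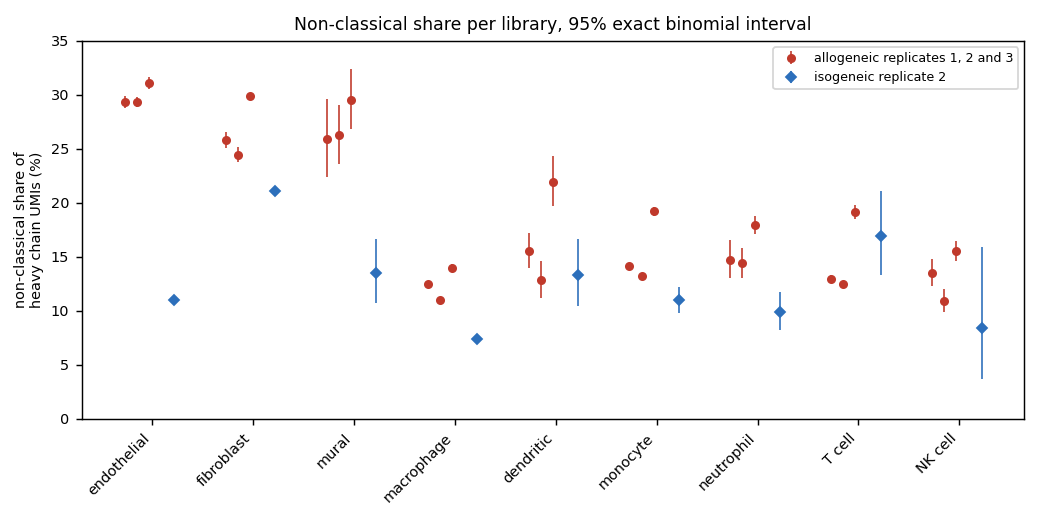
Percentage of heavy chain UMIs from the 6 non-classical members, 1 point per library with its exact binomial 95% interval, allografts as circles and the isograft as a diamond. Endothelial cells show the widest gap among the tested classes, 29.3% to 31.1% in the allografts and 11.01% in the isograft.

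Graft-resident cells (endothelial cells and fibroblasts) were then set against infiltrating cells (T cells, NK cells, monocytes and neutrophils) within the 3 allografts, with the library as a block. Mural cells had too few cells, and macrophages and dendritic cells stayed out because the labels do not give their origin. Of the 9 members, 8 were higher in the mean of the resident classes than in that of the infiltrating ones. Among all genes 36.4% were called higher and 21.3% lower, so a call is common in this comparison. By allograft mean, both resident classes lay above every infiltrating one for H2-K1, H2-Q6, H2-Q7, H2-T22 and H2-T23. Neutrophils lay above fibroblasts for H2-Q4 (512 against 324 CPM) and B2m (3105 against 3009 CPM). Monocytes lay above fibroblasts for H2-M3 (86.7 against 72.1 CPM). H2-Q6 (4.58, SE 0.21, edgeR adjusted p = 1.04e-12) and H2-Q7 (3.34, SE 0.17, edgeR adjusted p = 2.99e-12) had the largest log2 differences. H2-T22 (1.00, SE 0.12), H2-M3 (0.93, SE 0.14), H2-T23 (0.91, SE 0.14), H2-Q4 (0.62, SE 0.12) and B2m (0.52, SE 0.13) followed, with edgeR adjusted p from 3.83e-07 to 0.00169, over an all-gene median of 0.26. The fit took each class of a library as a separate observation, so these p-values rest on class sums from only 3 libraries.

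The classical genes differed least between the sides. H2-K1 was 0.31 higher on the log2 scale in resident cells (SE 0.13, edgeR adjusted p = 0.0475) and did not pass without the library block (0.31, edgeR adjusted p = 0.0598), without replicate 1 (0.30, edgeR adjusted p = 0.242) or without replicate 2 (0.39, edgeR adjusted p = 0.196). H2-D1 was at -0.10 (SE 0.14, edgeR adjusted p = 0.588). Without neutrophils on the infiltrating side H2-D1 turned to 0.42 and passed (edgeR adjusted p = 0.00445), neutrophils being the class with the highest H2-D1. B2m did not pass without replicate 1 (0.46, edgeR adjusted p = 0.064) or without replicate 2 (0.55, edgeR adjusted p = 0.0657).

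**Figure D5:**
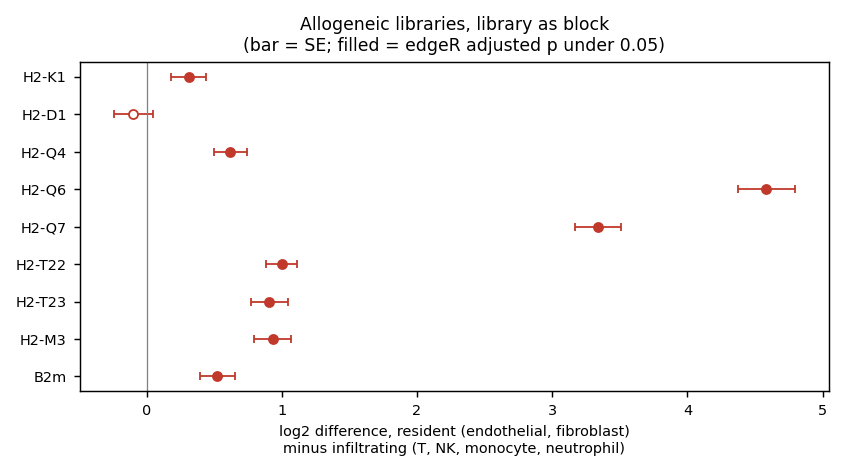
Log2 difference of each member between resident and infiltrating classes of the 3 allografts (edgeR with library block; bars are SE, filled circles passed an adjusted p of 0.05). H2-Q6 and H2-Q7 lie at 4.58 and 3.34, the other non-classical members between 0.62 and 1.00, and H2-D1 at -0.10.

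Whether the graft type effect itself differed between resident and infiltrating classes was tested as an interaction over all 4 libraries, with T cells, monocytes and neutrophils as the infiltrating side. With edgeR 0 of 9 members passed, where 0.173% of all genes were called higher and 0.0767% lower. An unadjusted edgeR p under 0.05 was found for 5 members and for 1400 of all 15647 genes. DESeq2 called 6 members and 282 of all genes. The estimates were 4.08 for H2-Q7 (SE 1.16, edgeR adjusted p = 0.215), 1.15 for H2-Q4 (SE 0.30, edgeR adjusted p = 0.142) and 0.79 for H2-K1 (SE 0.29, edgeR adjusted p = 0.401). Without replicate 3 edgeR called 5 members (B2m, H2-K1, H2-Q4, H2-Q7 and H2-T23), beside 519 of 15081 genes. In a version chosen after seeing the data, with monocytes and macrophages as the infiltrating side because isograft T cells were few, H2-Q7 (3.64, SE 0.43, edgeR adjusted p = 0.000945) and B2m (0.78, SE 0.16, edgeR adjusted p = 0.0181) rose by more in resident cells, where 2.46% of all genes were called higher.

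A further test chosen after seeing the data set the graft type effect in T cells against the mean effect in the other 5 classes. The effect was lower in T cells for H2-Q4 (-3.29, SE 0.34, edgeR adjusted p = 4.52e-05), H2-K1 (-2.48, SE 0.29, edgeR adjusted p = 0.000161), B2m (-1.93, SE 0.29, edgeR adjusted p = 0.0017), H2-T22 (-2.65, SE 0.45, edgeR adjusted p = 0.00456) and H2-T23 (-2.06, SE 0.39, edgeR adjusted p = 0.0117). Among all genes 0.733% were called higher and 0.501% lower, and their median was 1.71. Without replicate 1, 3 members were called, and without replicate 2 only H2-Q4 was (-3.13, edgeR adjusted p = 0.00769). All of this rests on the 35 isograft T cells described above, which come from 1 library. This fit too took each class of a library as a separate observation.

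H2-K1 plus H2-D1 UMIs were also read cell by cell, per 10000 UMIs of the cell. Endothelial cells had medians of 76.5, 70.6 and 83.1 in the allografts and 34.6 in the isograft. The 10th percentiles were 50.5, 46.3 and 31.0 in the allografts, against a 90th percentile of 66.0 in the isograft, so the distributions overlapped. In fibroblasts the medians were 72.2, 69.9 and 46.0 in the allografts and 9.75 in the isograft, whose 90th percentile was 21.0. Replicate 3 fibroblasts had a 10th percentile of 10.1, below the isograft's 90th percentile, while those of replicates 1 and 2 were at 34.9 and 42.7. Isograft mural cells had the lowest median of any class and library, at 3.13, with no H2-K1 or H2-D1 UMI in 26.8% of 183 cells.

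Genes that work with class I were counted from lists. Of 13 peptide loading genes, which cut, transport and load peptides, edgeR called 9 higher in endothelial cells, 10 in fibroblasts, 10 in macrophages, 6 in monocytes, 9 of 12 tested in neutrophils and 0 in T cells, and none lower. The shares of all genes called higher in these classes were 2.42%, 2.28%, 3.57%, 0.936%, 4.17% and 0.0%, in the same order. Tap1, a subunit of the peptide transporter, had 379, 404 and 453.5 CPM in allograft endothelial cells and 24.6 CPM in isograft ones, a log2 change of 4.11 (SE 0.29, edgeR adjusted p = 0.00321). In fibroblasts Tap1 rose by 4.51 (SE 0.36, edgeR adjusted p = 0.00102) and the immunoproteasome subunit Psmb9 by 4.37 (SE 0.41, edgeR adjusted p = 0.00178). The list median was 2.30 in endothelial cells, 2.48 in fibroblasts and 2.20 in macrophages, near the members' own medians.

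Of 13 regulators of class I transcription, 5 rose in endothelial cells, 4 in fibroblasts, 5 in macrophages, 4 in monocytes, 5 of 10 tested in neutrophils and 0 in T cells, and none fell. The all-gene shares are those given with the peptide loading genes, and in T cells no gene at all was called. Nlrc5, the class I transactivator, had 129.9, 157 and 194 CPM in allograft endothelial cells and 10.5 CPM in isograft ones, a log2 change of 3.97 (SE 0.36, edgeR adjusted p = 0.00558). In fibroblasts its log2 change was 5.21 (SE 0.39, edgeR adjusted p = 0.000886). T cells had 105, 97.6 and 76.0 CPM of Nlrc5 in the allografts and 174 CPM in the isograft, the last from 11 UMIs, and edgeR did not call it there. In the test of T cells against the other 5 classes Nlrc5 was called lower (-4.37, SE 0.59, edgeR adjusted p = 0.000501), as was Irf1 (-3.27). In the resident against infiltrating interaction, Nlrc5 was the only gene of this list called higher (2.22, SE 0.43, edgeR adjusted p = 0.0456).

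Among 17 other class I and class I-like genes, of which 4 to 12 were tested per class, few passed. H2-K2, a neighbour of H2-K1, had 49.3, 48.7 and 47.7 CPM in allograft endothelial cells and 4.58 CPM in isograft ones, a log2 change of 3.44 (SE 0.29, edgeR adjusted p = 0.00475), and Fcgrt, the neonatal Fc receptor, fell by 1.52 there (SE 0.22, edgeR adjusted p = 0.0226). Macrophages had 4 genes higher, among them the lipid-presenting Cd1d1 (2.01, SE 0.28, edgeR adjusted p = 0.0265), and 2 lower, among them the iron regulator Hfe (-1.34, SE 0.20, edgeR adjusted p = 0.0319). Fibroblasts had 2 higher, and monocytes, neutrophils and T cells had 0. Over all genes, 3.57% were called higher and 1.95% lower in macrophages, and 2.28% higher in fibroblasts. The shares called higher were 0.936% in monocytes, 4.17% in neutrophils and 0.0% in T cells. H2-K2, H2-T10 and H2-Q1 share sequence with other class I genes, so their counts are uncertain too. In the resident against infiltrating comparison H2-Q1, another Q-region gene, was lower in resident cells (-4.31, SE 0.30, edgeR adjusted p = 3.1e-10). H2-Q1 had 1.49, 0.719 and 2.25 CPM in allograft endothelial cells and 6.11 CPM in isograft ones, and 24.1, 20.7 and 23.1 CPM in allograft macrophages and 10.5 CPM in isograft ones.

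Of 15 receptors for class I, 5 of 10 tested were called higher in fibroblasts, where 2.28% of all genes were. None was called in the other classes, whose all-gene shares are given with the peptide loading genes. They were genes of NK and T cells, such as Klrc1 (NKG2A), with 7.03, 9.39 and 7.70 CPM in allograft fibroblasts and 0 UMIs in isograft ones, and Klrd1 (CD94), with 9.84, 14.8 and 12.9 CPM in the allografts and 0.106 CPM in the isograft. T cell markers (8 genes) summed to 101, 139.6 and 155 CPM in those allograft fibroblasts and 16.3 CPM in the isograft, and NK cell markers (8 genes) to 34.5, 107 and 180.1 CPM in the allografts and 0.476 CPM in the isograft. Their part in the result was not tested. In allograft T cells Klrc1 itself stood at 327, 238 and 112 CPM.

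Cells of other classes could add to the member levels too. In endothelial cells the 8 macrophage markers summed to 531, 465 and 89.98 CPM in the allografts and 223 CPM in the isograft, against 13113, 13571 and 14228 CPM in allograft macrophages. The fibroblast markers summed to 60.1, 101 and 667 CPM in allograft endothelial cells and 724 CPM in isograft ones. Their own 8 markers were at 5134, 4950 and 4612 CPM in the allografts and 5783 CPM in the isograft. In macrophages the 8 fibroblast markers were at 72.5, 125 and 536 CPM in the allografts and 691 CPM in the isograft. The part of these transcripts in the member levels was not tested.

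Across the 32 sums of a library and class with at least 20 cells, the genes whose log2(CPM + 1) was most like that of H2-K1 plus H2-D1 were Psmb9 (Pearson r = 0.909), Tap1 (0.900), Zbp1 (0.879), Gbp9 (0.850) and Cd274 (0.845), out of 3442 genes with a mean of at least 50 CPM. Nlrc5 was sixth at 0.839. Among the members, B2m correlated at 0.905 with the classical sum, H2-T23 at 0.846, H2-Q7 at 0.716 and H2-Q6 at 0.565. H2-Q6 and H2-Q7 correlated at 0.925 with each other, and H2-Q6 with H2-D1 at 0.472, the lowest pair. These sums share libraries and depth, so the values are descriptions.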

How the data were processed

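The deposited matrices hold raw UMI counts per gene and cell from 10x 3' libraries, aligned by the authors to mm10 with Cell Ranger, which is version 3.1.0 per the submitters' processing notes and 6.1.0 per the file headers. Strand use in counting is not stated in the labels or file headers. The members and gene lists were chosen with earlier results of these data known. Barcodes with under 500 UMIs, under 300 genes or over 20% mitochondrial UMIs were removed (1101, 91 and 146 of low quality and 76, 90 and 97 of high mitochondrial share in the allografts, and 44 and 43 in the isograft). Doublets were scored with Scrublet (scanpy 1.11.5) and removed at 0.8% per 1000 barcodes, which took 205, 552 and 328 allograft barcodes and 1045 isograft ones. A marker was on where its scaled count reached 20% of its 90th percentile among cells with a UMI. A cell joined the class with the highest share of markers on, with at least 3 on and no other class above 50% of that share, which placed 3405, 5485 and 4444 allograft cells and 8956 isograft cells. The stricter gate asked for 4 markers and 40%.

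UMI counts were summed per library and class with at least 20 cells and tested with edgeR 4.0.16 in R 4.3.3 (quasi-likelihood F-test, TMM scaling, filterByExpr, Benjamini-Hochberg adjustment over all genes of a fit, threshold 0.05). SEs are approximate, the log2 change divided by the root of F. Tests across classes had the library as a block. They took each class of a library as a separate observation, so values outnumber libraries in those fits. Alternatives were DESeq2 1.42.0 and its size factors, no expression filter, kept doublets, a mitochondrial limit of 10%, the stricter gate, other denominators, summed paralogs and each allogeneic library left out. The fits were tested on simulated data. Named genes were all 9 members, up to 4 called genes per list with the largest log2 changes, and the 5 genes most like H2-K1 plus H2-D1; levels of H2-Q1, Klrc1 and Klrd1 were added after their values were seen. H2-T9 and H2-Ea-ps were not analysed here. The values of 1 gene of the regulator list are not reported here.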

Additional observations from a re-analysis of the deposited data

Results flagged for a closer look

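The effect of graft type on 5 members was lower in T cells than in the mean of the other 5 classes, in a test of the difference itself chosen after seeing the data (edgeR). The log2 differences were -3.29 for H2-Q4, -2.48 for H2-K1, -1.93 for B2m, -2.65 for H2-T22 and -2.06 for H2-T23. The effect on H2-Q7 (3.64) and B2m (0.78) was higher in endothelial cells and fibroblasts than in monocytes and macrophages, in a second test of the difference chosen in the same way.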

How the results depend on the processing

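No paired analysis was possible because the graft types share only replicate number 2; within libraries, removing the replicate block left 7 members called between resident and infiltrating cells (8 with it), 0 in the interaction and 5 in the T cell comparison. Leaving out each allogeneic library in turn gave 3 to 9 members called in endothelial cells, 3 to 9 in fibroblasts, 2 to 9 in macrophages, 0 to 8 in monocytes, 3 to 7 in neutrophils, 0 to 2 in T cells, 6 to 8 between resident and infiltrating cells, 0 to 5 in the interaction and 1 to 7 for T cells against the other classes. Relative to H2-K1 plus H2-D1 it gave 4 to 6 in endothelial cells, 2 to 4 in fibroblasts, 2 to 5 in macrophages and 0 to 1 in monocytes, neutrophils and T cells. For the non-classical share it gave 18.3 to 19.2 points in endothelial cells and 4.06 to 6.78 in fibroblasts. In monocytes 8 members were called by DESeq2, 6 with no filter, 4 under the stricter gate and 1 with doublets kept. In the interaction 6 were called by DESeq2, 1 with no filter, 2 with monocytes and macrophages as the infiltrating side and 5 when replicate 3 was also left out. With H2-K1 alone as denominator 5 were called in fibroblasts (2 higher, 3 lower) and 3 in macrophages (2 higher, 1 lower), with H2-D1 alone 1 in neutrophils, and under the stricter gate 3 in macrophages. The endothelial share difference was 12.4 points without H2-Q6 and H2-Q7 and 17.6 without H2-T22, and the fibroblast one turned to -1.06 without H2-Q6 and H2-Q7. Signs turned, on the log2 scale, for T cell H2-D1 (-0.043 with DESeq2 size factors and with DESeq2, -0.019 at the 10% mitochondrial limit, -0.0089 with no filter, -0.076 under the stricter gate, and -0.12 to 0.086 with a library left out) and T cell H2-T23 (-0.027 to 0.41 with a library left out). Relative to the classical genes they turned for T cell H2-T22 (-0.083 against H2-D1, -0.0067 to 0.042 with a library left out), fibroblast H2-Q4 (-0.39 against H2-K1), fibroblast H2-T22 (0.50 against H2-D1, 0.050 with doublets kept, 0.00035 at the 10% limit, 0.020 without replicate 3), fibroblast H2-T23 (0.27 against H2-D1), macrophage H2-Q4 (-0.032 against H2-K1), monocyte H2-M3 (0.23 against H2-D1, 0.0040 under the stricter gate), monocyte H2-Q4 (-0.32 against H2-K1, -0.098 to 0.40 with a library left out) and neutrophil H2-T23 (-0.67 against H2-K1). They also turned for H2-Q6 in T cells against the other classes (-3.73 with DESeq2), H2-T22 in the interaction (-0.018 with monocytes and macrophages, without replicate 3) and H2-D1 between resident and infiltrating cells (0.018 with DESeq2 size factors and with DESeq2, -0.20 to 0.031 with a library left out, 0.42 without neutrophils). None of these log2 values was called before it turned, and the cause was not tested. Over all genes, calls without replicate 3 were 4322 in endothelial cells (475 with it), 2622 in fibroblasts (418), 7551 in macrophages (846), 2360 in monocytes (180), 487 in T cells (0) and 519 in the interaction (39). The single isograft library, 35 isograft T cells and small fibroblast classes in replicates 1 and 2 (52 and 102 cells) limit what can be detected.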
